A study of Mus musculus with 6 samples.

Results

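The 8 mouse immunoglobulin heavy chain constant genes, *Ighm*, *Ighd*, *Ighg3*, *Ighg1*, *Ighg2b*, *Ighg2c*, *Ighe* and *Igha*, were followed in infarcted hearts of WT and *Crlf2-/-* mice. They were taken by gene name from a table of 54532 genes, and each name matched 1 gene. These genes were chosen by their difference between the 2 groups in the same libraries, so their levels in WT and *Crlf2-/-* hearts are given as a description. The fit across all genes also covers them, but the p it gives them is selected on and is not used as evidence. Tissue from the infarcted and peri-infarcted heart was collected on day 7 after ligation of the left anterior descending artery from 3 WT and 3 *Crlf2-/-* mice, and polyadenylated RNA was sequenced with 1 library per mouse. WT mice were male C57BL/6J animals, 8 to 12 weeks old when acquired. *Crlf2-/-* mice lacked the receptor for thymic stromal lymphopoietin (TSLP) in the whole body and were made on the C57BL/6J background; their age was not given separately. All 6 mice were infarcted, so no level in an uninjured heart was measured.

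B cells carry antibodies on their surface, and plasma cells, which arise from them, release antibodies in large amounts. An antibody joins heavy chains to light chains, and the constant gene used for the heavy chain sets the isotype. A B cell that has not met antigen makes IgM and IgD from *Ighm* and *Ighd*, which lie next to each other and are spliced from 1 long transcript. In class switching a deletion brings a downstream gene for IgG, IgE or IgA next to the variable segment. TSLP acts on dendritic cells and lymphocytes and is best known for type 2 responses at barrier surfaces, in which IgE is made. In the heart, B cells are known as residents and as cells that respond to infarction.

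The libraries held from 18508646 to 19682428 fragments on genes of the table. Levels were deposited as FPKM, in which the fragments of a gene are divided by its length and by the size of the library. Multiplied by gene length, 100% of nonzero FPKM fell on whole numbers of fragments, within 0.02 fragments, so that the fragments behind each value are known. *Crlf2* was represented by 917, 813 and 707 fragments in WT libraries 1, 2 and 3 and by 437, 651 and 667 in *Crlf2-/-* libraries 1, 2 and 3. Every *Crlf2-/-* library thus lay below every WT library for the targeted gene, but transcripts assigned to it were present in all of them. Which part of the gene was deleted could not be read from gene totals. Cardiomyocyte genes were detected in all libraries, with 10 of 10 tested and their summed level between 1082 and 2006 FPKM in WT and between 709 and 1396 FPKM in *Crlf2-/-* hearts. All values below follow this order of libraries, and libraries were put on 1 scale by trimmed mean of M values (TMM) factors.

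All 8 genes lie on the minus strand of chromosome 12 (GRCm38), in the order in which they are listed above. *Ighm* lies at chr12:113418558-113422730 and *Igha*, the last gene of the row, at chr12:113254830-113260236, with its start 162 kb downstream of the start of *Ighm*. *Ighd* starts 6.41 kb, *Ighg3* 61.5 kb, *Ighg1* 92.2 kb, *Ighg2b* 115 kb, *Ighg2c* 134 kb and *Ighe* 149 kb downstream of *Ighm*. For all 8 genes the start, the end and the summed exon length in the table were those of GENCODE M21, and no other listed gene overlapped any of them. Each is annotated with 2 transcripts, and the exons used only by membrane-bound antibody are counted together with those of the secreted form. A gene total therefore does not separate secreted from membrane-bound antibody.

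The 2 genes with the largest totals, *Ighm* and *Igha*, encode a tail that is present only in the secreted chain. This tail links IgM and IgA into polymers together with the joining chain, and its sequences are shown because the joining chain is compared with both genes below. Each tail has 59 coding bases before the stop codon, at chr12:113420870-113420928 for *Ighm* and at chr12:113258771-113258829 for *Igha* (GENCODE M21, 5′ to 3′ on the minus strand). Capitals mark the 40 of 59 positions (67.8%) at which the 2 tails have the same base. The shared TGC codon near the 3′ end encodes the cysteine to which the joining chain is bound.
Ighm: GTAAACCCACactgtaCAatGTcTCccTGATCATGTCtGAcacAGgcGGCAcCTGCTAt
Igha: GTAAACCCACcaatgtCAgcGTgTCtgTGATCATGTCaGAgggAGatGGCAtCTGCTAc
The tails of the 4 IgG genes had 5 coding bases each, and such chains form no polymers.

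The 4 IgG genes are close relatives, so whether their fragments could be told apart was examined. The exon that encodes the flexible hinge has between 38.8% and 77.3% identical bases in pairs of them, whereas *Ighg2b* and *Ighg2c* have 94.2% identical bases in the exon that follows it. The hinge exons lie at chr12:113360529-113360576 for *Ighg3*, chr12:113329844-113329882 for *Ighg1*, chr12:113307261-113307326 for *Ighg2b* and chr12:113288263-113288325 for *Ighg2c*. Capitals in the *Ighg2b* and *Ighg2c* hinges mark the bases that match between these 2 in their alignment, which has 77.3% identity.
Ighg3: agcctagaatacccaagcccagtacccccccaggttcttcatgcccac
Ighg1: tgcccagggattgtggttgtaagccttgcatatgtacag
Ighg2b: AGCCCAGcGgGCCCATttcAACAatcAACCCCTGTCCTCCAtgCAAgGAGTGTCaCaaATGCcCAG
Ighg2c: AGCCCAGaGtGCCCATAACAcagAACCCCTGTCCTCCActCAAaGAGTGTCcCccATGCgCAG
None of the 8 genes had a stretch of 100 bases that also occurs in an annotated transcript of another gene. Shorter reads, or alignments with mismatches, could still be assigned to the wrong IgG gene, and this was not tested.

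The IgM gene had the highest level in every library except WT 1. *Ighm* was represented by 983, 5868 and 5769 fragments in the WT hearts against 1577, 917 and 893 in the *Crlf2-/-* hearts, or 22.8, 142 and 140 FPKM against 37.9, 20.8 and 21.1 FPKM. WT 2 and 3 were high, and WT 1 lay within the range of the *Crlf2-/-* hearts, so the groups overlapped. Its mean was 102 ± 68.3 FPKM (SD, n = 3) over the WT mice and 26.6 ± 9.80 FPKM (SD, n = 3) over the *Crlf2-/-* mice, 3.82 times higher in WT. On the log2 scale, the fold change of *Crlf2-/-* against WT, from limma on log2(FPKM + 0.1), was -1.59 with a standard error of 0.72. Without WT 1 the *Ighm* groups did not overlap and the ratio of means was 5.31, and without *Crlf2-/-* 1 they did not overlap either, with a ratio of 4.86. In bulk tissue, fewer antibody-making cells and less antibody RNA per cell cannot be told apart, here and for every gene below.

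*Ighd*, whose product accompanies IgM on the surface of B cells that have not switched, showed no such pattern. It was represented by 31, 52 and 52 fragments in the WT hearts against 76, 50 and 29 in the *Crlf2-/-* hearts. The highest and the lowest of the 6 libraries were both *Crlf2-/-*. Means were 1.07 ± 0.310 FPKM (SD, n = 3) over the WT mice and 1.20 ± 0.571 FPKM (SD, n = 3) over the *Crlf2-/-* mice, and the log2 fold change was 0.10 with a standard error of 0.35. Its sign was not stable, with values between -0.22 and 0.42 when single libraries were left out.

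*Igha*, the gene for IgA, which is known for its role at mucosal surfaces, differed more than *Ighm*. It was represented by 1394, 992 and 335 fragments in the WT hearts against 11, 36 and 51 in the *Crlf2-/-* hearts, or 22.8, 17.0 and 5.73 FPKM against 0.187, 0.576 and 0.851 FPKM. All *Crlf2-/-* libraries lay below all WT libraries, and the lowest WT library was 6.74 times higher than the highest *Crlf2-/-* library. The ratio of means was 28.3, and it stayed between 21.1 and 39.8 when each library was left out. WT hearts differed among themselves by 3.98 times, with WT 1 highest for *Igha* although it was lowest for *Ighm*. The log2 fold change was -4.53 with a standard error of 0.58.

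The genes of the IgG2 subclasses were, like *Igha*, lower in every *Crlf2-/-* heart than in any WT heart. In mice, IgG2b and IgG2c are the subclasses known for strong binding to activating Fc receptors and complement, and *Ighg2c* takes the place of *Ighg2a* in the C57BL/6 strain. *Ighg2b* was represented by 157, 138 and 151 fragments in the WT hearts against 5, 16 and 7 in the *Crlf2-/-* hearts. The 3 WT libraries lay within 1.09 times of each other, the narrowest spread in WT among the 7 detected genes, and all *Crlf2-/-* libraries lay below them. Means were 2.50 ± 0.123 FPKM (SD, n = 3) over the WT mice and 0.152 ± 0.0907 FPKM (SD, n = 3) over the *Crlf2-/-* mice, a ratio of 16.4 that was 24.9 without *Crlf2-/-* 2. The log2 fold change was -3.42 with a standard error of 0.27.

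*Ighg2c* was represented by 229, 251 and 61 fragments in the WT hearts against 5, 1 and 8 in the *Crlf2-/-* hearts. WT 3 was the lowest of the WT libraries, as it was for *Igha*, and still had 7.82 times the level of the highest *Crlf2-/-* library. Means were 6.10 ± 3.51 FPKM (SD, n = 3) over the WT mice and 0.157 ± 0.119 FPKM (SD, n = 3) over the *Crlf2-/-* mice. Their ratio was 38.8, with 60.1 without *Crlf2-/-* 3, and the log2 fold change was -4.48 with a standard error of 0.57. With so few fragments in *Crlf2-/-* hearts, counting error alone makes these folds imprecise.

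The remaining genes were close to the limit of detection. *Ighg3*, whose subclass is known for responses to bacterial polysaccharides, was represented by 14, 35 and 33 fragments in the WT hearts against 6, 2 and 7 in the *Crlf2-/-* hearts. Its groups did not overlap, and its log2 fold change was -1.61 with a standard error of 0.36. This value is held down by the pseudocount, being -2.39 with a pseudocount of 0.01 and -0.45 with a pseudocount of 1.

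*Ighg1*, the subclass associated in mice with interleukin-4 and type 2 responses, was represented by 4, 11 and 9 fragments in the WT hearts against 0, 30 and 1 in the *Crlf2-/-* hearts. The highest and the lowest library were both *Crlf2-/-*, and 30 of the 31 fragments of this group came from *Crlf2-/-* 2. *Ighe*, the gene for IgE, was listed at 0 in all 6 libraries. A count of 0 allows up to 3 fragments, which is between 0.0808 and 0.0866 FPKM per library, so a lower level of *Ighe* was not detectable at this depth. Such limits cover counting error only.

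**Figure D1:**
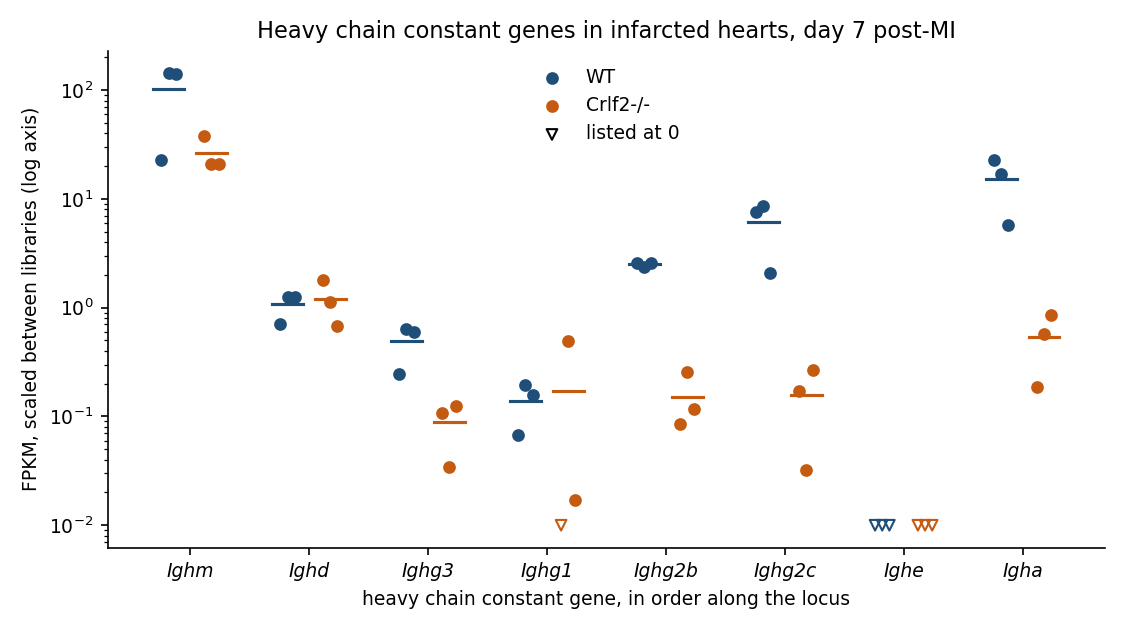
Level of the 8 heavy chain constant genes in each library, as FPKM scaled between libraries on a log axis, with genes in their order along the locus. Dots are libraries, horizontal lines are group means of 3 mice, and open triangles mark genes listed at 0. *Ighg2b*, *Ighg2c*, *Ighg3* and *Igha* have all *Crlf2-/-* dots below all WT dots, whereas *Ighm*, *Ighd* and *Ighg1* overlap.

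In the fit across all genes, 6 of the 8 genes passed the filter on low values, and *Ighg1* and *Ighe* did not. *Ighg2c* and *Ighg3* passed through the WT libraries only. A gene was called where limma gave a Benjamini-Hochberg adjusted p up to 0.05 and a log2 fold change of 0.5 or more in size, and 1 of these 6, *Ighg2b*, was called, being lower in *Crlf2-/-* hearts. Over all 15520 tested genes, 0.0129% were called in either direction and 0.00644% were called lower. *Ighg2b* was not called without WT 1, without WT 2 or without *Crlf2-/-* 3. Of the tested genes, 6.37% had all *Crlf2-/-* libraries below all WT libraries, as 4 of the 6 tested heavy chain genes did. Because the genes were selected on this contrast, nothing is read from these counts. The median log2 fold change of the 6 was -2.52, beside -0.0042 over all tested genes.

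The fold changes are also shown by position, as a description of genes chosen for this contrast. *Ighm* was at -1.59, *Ighd*, 6.41 kb downstream, at 0.10, *Ighg3*, at 61.5 kb, at -1.61, and *Ighg2b*, at 115 kb, at -3.42. *Ighg2c* and *Igha*, at 134 and 162 kb, were at -4.48 and -4.53 and differed by less than their standard errors. The positions of *Ighg3* and *Ighg2c* on this scale depend on the processing, since voom on the fragments gave -2.41 for *Ighg3*, -5.24 for *Ighg2c* and -4.82 for *Igha*. *Ighg1*, at 92.2 kb, was not tested, and no trend is read from these genes.

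**Figure D2:**
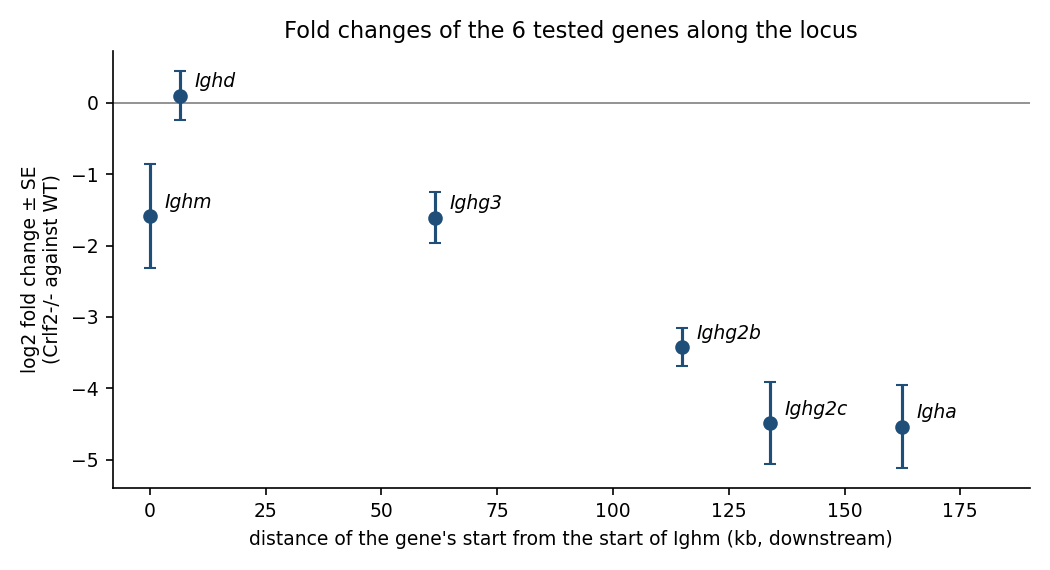
Log2 fold change of *Crlf2-/-* against WT for the 6 tested genes (vertical axis, bars are standard errors, 3 mice per group) against the distance of each gene's start from the start of *Ighm* in kb. *Ighd* lies at 0.10, and the 5 others lie between -1.59 and -4.53.

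The isotype make-up was then compared as each gene's share of all heavy chain constant fragments in a library, with exact Clopper-Pearson 95% intervals that cover counting error only. The 8 genes together had 2812, 7347 and 6410 fragments in the WT hearts against 1680, 1052 and 996 in the *Crlf2-/-* hearts. All *Crlf2-/-* libraries lay below all WT libraries. In FPKM the summed level was 127 ± 61.7 (SD, n = 3) in WT and 28.9 ± 9.84 (SD, n = 3) in *Crlf2-/-* hearts, a ratio of 4.40.

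*Ighm* took 35.0% (33.2 to 36.8) of the fragments in WT 1, 79.9% (78.9 to 80.8) in WT 2 and 90.0% (89.2 to 90.7) in WT 3. In *Crlf2-/-* hearts its share was 93.9% (92.6 to 94.97), 87.2% (85.0 to 89.1) and 89.7% (87.6 to 91.5). The share in WT 3 thus lay among those of the *Crlf2-/-* hearts, and WT 1 stood apart from all other libraries. *Igha* mirrored this, with 49.6%, 13.5% and 5.23% in WT and 0.655%, 3.42% and 5.12% in *Crlf2-/-* hearts. The intervals of WT 3 (4.69 to 5.80) and *Crlf2-/-* 3 (3.84 to 6.68) overlapped.

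The switched genes, that is all but *Ighm* and *Ighd*, took 63.9% of the fragments in WT 1, 19.4% in WT 2 and 9.19% in WT 3. Their share in *Crlf2-/-* hearts was 1.61%, 8.08% and 7.43%. All *Crlf2-/-* libraries lay below all WT libraries, but the intervals of WT 3 (8.49 to 9.92) and *Crlf2-/-* 2 (6.50 to 9.89) overlapped. The mean share was 30.9% ± 29.1 (SD, n = 3) in WT and 5.71% ± 3.56 (SD, n = 3) in *Crlf2-/-* hearts, and without WT 1 the WT mean was 14.3%. In level rather than share, the switched genes summed to 24.4 ± 11.7 FPKM (SD, n = 3) over the WT mice and 1.11 ± 0.481 FPKM (SD, n = 3) over the *Crlf2-/-* mice.

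Per length, in shares of summed FPKM, the order of the groups was kept. The switched share was 58.6%, 16.7% and 7.34% in WT and 1.37%, 5.98% and 5.95% in *Crlf2-/-* hearts. In WT 1 *Igha* and *Ighm* were then level, at 40.2% and 40.1%.

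*Ighd* had a larger share in every *Crlf2-/-* heart than in any WT heart, whereas the shares of *Ighm* and *Ighg1* overlapped. *Ighd* took 1.10%, 0.708% and 0.811% of the fragments in WT and 4.52%, 4.75% and 2.91% in *Crlf2-/-* hearts. Since its level did not separate the groups, the larger share goes with the smaller total. *Ighg1* made up 2.85% (1.93 to 4.05) of the fragments in *Crlf2-/-* 2 and at most 0.150% in the 5 other libraries.

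The order of the genes by FPKM also changed. In the WT hearts *Ighg2b* and *Ighg2c* had ranks 3 and 4, in either order, behind *Ighm* and *Igha*, and *Ighd* had rank 5. In *Crlf2-/-* 1 and 2, *Ighd* had rank 2, ahead of *Igha*, and in *Crlf2-/-* 3 it had rank 3, behind *Igha*. Below these, each gene had at most 30 fragments in a *Crlf2-/-* library, and the ranks changed from library to library.

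**Figure D3:**
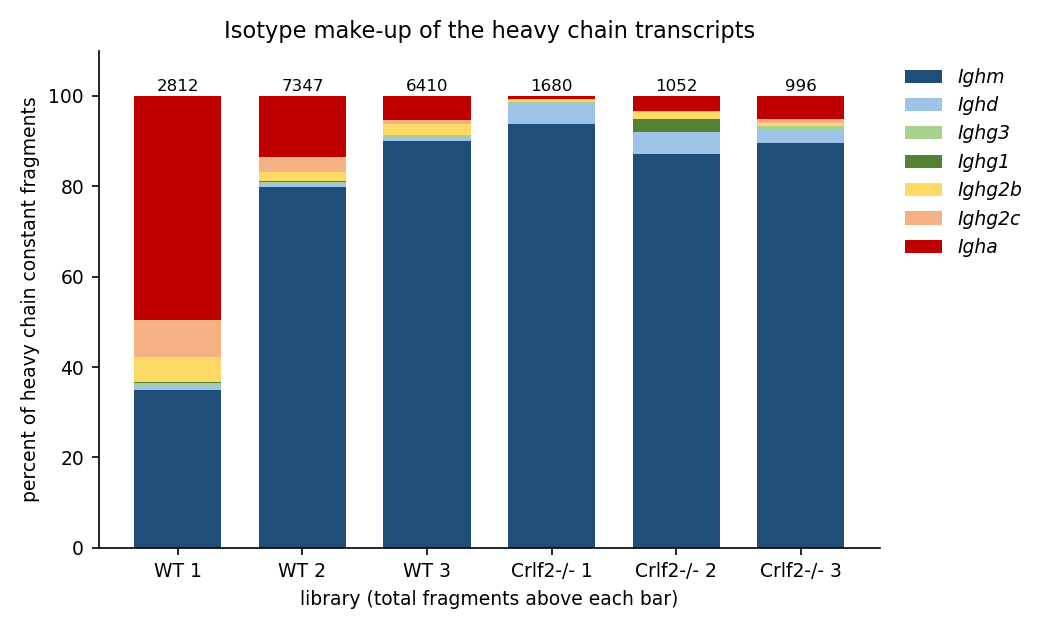
Share of each constant gene among all heavy chain constant fragments in each library, in percent, with the number of fragments above each bar. *Igha* takes 49.6% in WT 1 and between 0.655% and 5.12% in the 3 *Crlf2-/-* libraries, and *Ighe* has no fragments.

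Heavy chains were next set beside the light chains with which they pair. *Igkc*, the constant gene of kappa light chains, was represented by 1304, 2948 and 2620 fragments in the WT hearts against 480, 153 and 161 in the *Crlf2-/-* hearts. As for *Ighm*, WT 1 was the lowest WT library, but here it lay above all *Crlf2-/-* libraries. Its WT mean was 195 ± 77.5 FPKM (SD, n = 3) and its *Crlf2-/-* mean 22.2 ± 16.2 FPKM (SD, n = 3), and the log2 fold change was -3.27 with a standard error of 0.50 (adjusted p = 0.126, limma). The 3 lambda constant genes *Iglc1*, *Iglc2* and *Iglc3* together had 46, 74 and 144 fragments in the WT hearts against 25, 22 and 8 in the *Crlf2-/-* hearts. Lambda chains made up between 2.45% and 5.21% of light chain constant fragments in WT and between 4.73% and 12.6% in *Crlf2-/-* hearts, with overlap.

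*Ighm* was 0.213, 0.561 and 0.621 times as high as *Igkc* in WT, in FPKM, and 0.927, 1.69 and 1.56 times as high in *Crlf2-/-* hearts. The ratio of all heavy to all light constant genes was 0.510, 0.663 and 0.639 in WT and 0.934, 1.64 and 1.64 in *Crlf2-/-* hearts. Both ratios separated the groups. Their absolute size depends on the annotated gene lengths, so which chain was in excess is not read from them. In fragments, the heavy constant genes exceeded the light constant genes in every library, with 2812 against 1350 in WT 1 and 996 against 169 in *Crlf2-/-* 3. Per unit of *Ighm*, light chain transcripts were thus fewer in every *Crlf2-/-* heart than in any WT heart.

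*Jchain* encodes the joining chain, which antibody-secreting cells make. It was represented by 388, 1033 and 926 fragments in the WT hearts against 97, 26 and 33 in the *Crlf2-/-* hearts, with a log2 fold change of -3.88 and a standard error of 0.52 (adjusted p = 0.109, limma). Per *Ighm* FPKM, the *Jchain* level was 0.296, 0.132 and 0.120 in WT and 0.0461, 0.0212 and 0.0277 in *Crlf2-/-* hearts, without overlap. Against the sum of *Ighm* and *Igha*, the 2 genes with the tail printed above, it was 0.127 ± 0.0179 (SD, n = 3) in WT and 0.0310 ± 0.0132 (SD, n = 3) in *Crlf2-/-* hearts. On this sum WT 1, at 0.148, was close to WT 2 and 3, at 0.118 and 0.116. Against *Igha* alone the groups overlapped, from 0.295 to 2.93 in WT and from 0.686 to 9.35 in *Crlf2-/-* hearts.

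A transcript of a complete heavy chain holds a variable segment in front of the constant gene. The 185 listed *Ighv* segments together had 268, 706 and 591 fragments in the WT hearts against 91, 9 and 42 in the *Crlf2-/-* hearts. For every 100 heavy chain constant fragments there were 9.53, 9.61 and 9.22 variable fragments in WT and 5.42, 0.856 and 4.22 in *Crlf2-/-* hearts. The 3 WT hearts were close to each other in this ratio, although their isotypes differed, and all *Crlf2-/-* hearts were lower. For kappa chains the same ratio, of *Igkv* to *Igkc* fragments, overlapped between the groups, at 40.2 to 42.6 in WT and 26.1 to 50.4 in *Crlf2-/-* hearts. Segments not in the reference and hypermutated segments may escape alignment, which was not tested.

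The ratio of *Ighm* to *Ighd* FPKM was 31.9, 114 and 112 in WT and 20.9, 18.5 and 31.0 in *Crlf2-/-* hearts. The groups did not overlap, but WT 1 and *Crlf2-/-* 3 were nearly equal, so the separation rests on WT 2 and WT 3.

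**Figure D4:**
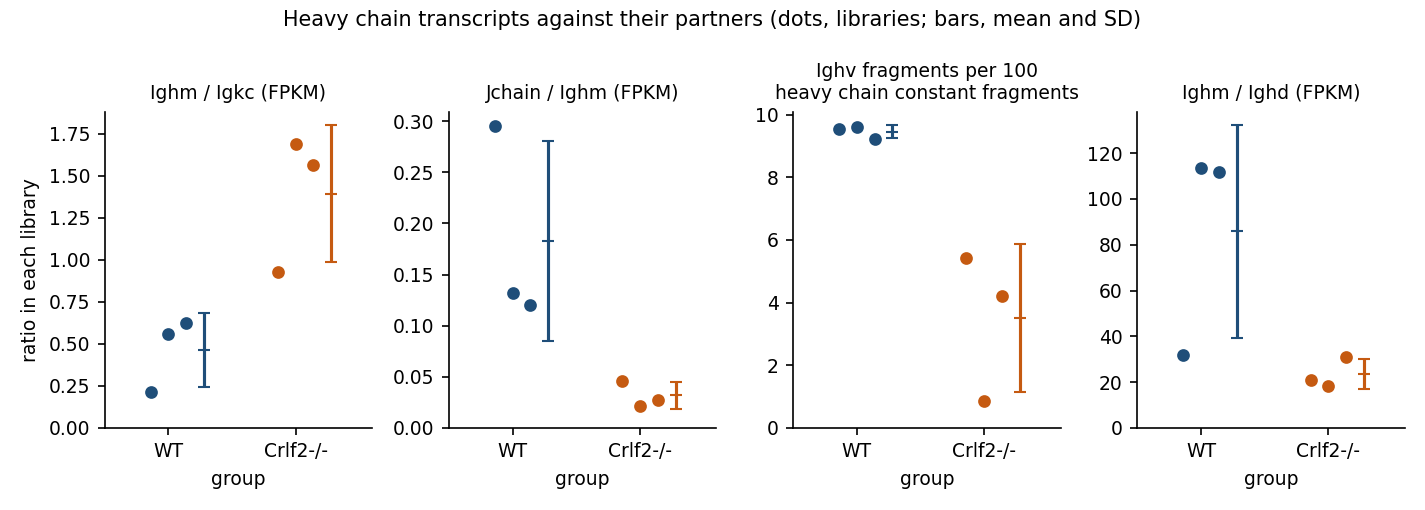
Ratios within each library, from left to right *Ighm* to *Igkc* and *Jchain* to *Ighm* in FPKM, *Ighv* fragments per 100 heavy chain constant fragments, and *Ighm* to *Ighd* in FPKM. Dots are libraries and bars are the mean and SD of 3 mice; *Ighv* fragments number 9.22 to 9.61 per 100 in WT and 0.856 to 5.42 in *Crlf2-/-* hearts.

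Other genes of the pathway were read from lists, and limma called none of them in either direction. Of the light chain constant and joining chain genes 5 of 5 were tested and 0 were called, while 4 had an unadjusted p below 0.05 and were lower, beside 3.36% of all tested genes. The median log2 fold change of this list was -3.27. *Igkc*, *Iglc1* and *Jchain* were called, lower, when *Crlf2-/-* 1 was left out, as was *Mzb1*. limma's voom on the fragments also called 0 genes in each of the lists that follow.

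Of 16 plasma cell genes outside the immunoglobulins, 14 were tested and 0 were called, with 7 fold changes above and 7 below 0 and a median of -0.09. The 4 with an unadjusted p below 0.05 were all lower, beside 3.36% of all tested genes. *Mzb1*, a chaperone of the endoplasmic reticulum that helps assemble antibodies, was represented by 36, 25 and 37 fragments in the WT hearts against 9, 2 and 3 in the *Crlf2-/-* hearts (log2 fold change -2.51, standard error 0.38, adjusted p = 0.110). *Derl3*, a gene for the degradation of misfolded proteins in the endoplasmic reticulum, was represented by 34, 29 and 38 fragments against 11, 14 and 10 (log2 fold change -1.27, adjusted p = 0.132). Both had all *Crlf2-/-* libraries below all WT libraries, as did *Creld2*, *Sec11c* and *Pou2af1*. These were 5 of the 14 tested genes of the list, beside 6.37% of all tested genes. *Creld2*, *Sec11c* and *Pou2af1* differed less than *Mzb1* and *Derl3*, with log2 fold changes of -0.42, -0.20 and -0.82. Of the 7 fold changes above 0, the largest were those of *Fkbp11* (0.30) and *Tent5c* (0.23). *Xbp1*, *Sdc1* and *Txndc5*, which many other cells also express, were at 59.7, 34.5 and 95.4 FPKM in WT and at 47.6, 36.9 and 102 FPKM in *Crlf2-/-* hearts, and their groups overlapped. The receptor *Tnfrsf17*, which marks plasma cells, had at most 6 fragments in any library.

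Of 17 B cell genes outside the immunoglobulins, 16 were tested, 0 were called and 0 had an unadjusted p below 0.05, with a median of 0.07. *Cd79a* and *Cd79b* encode the signaling chains that accompany surface antibody in the membrane. *Cd79a* was represented by 34, 50 and 33 fragments in the WT hearts against 71, 35 and 24 in the *Crlf2-/-* hearts, a log2 fold change of 0.01 with a standard error of 0.37. *Cd79b* was represented by 127, 143 and 115 against 154, 94 and 103 fragments. *Ms4a1*, which encodes CD20, had 26, 55 and 51 fragments against 105, 20 and 25. *Crlf2-/-* 1 was the highest library for these 3 genes, as it was among *Crlf2-/-* hearts for *Ighm*, *Ighd* and *Igkc*. *Cd22*, an inhibitory receptor, was the exception to the overlap, at 1.95 ± 0.0662 FPKM (SD, n = 3) over the WT mice and 2.23 ± 0.127 FPKM (SD, n = 3) over the *Crlf2-/-* mice.

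**Figure D5:**
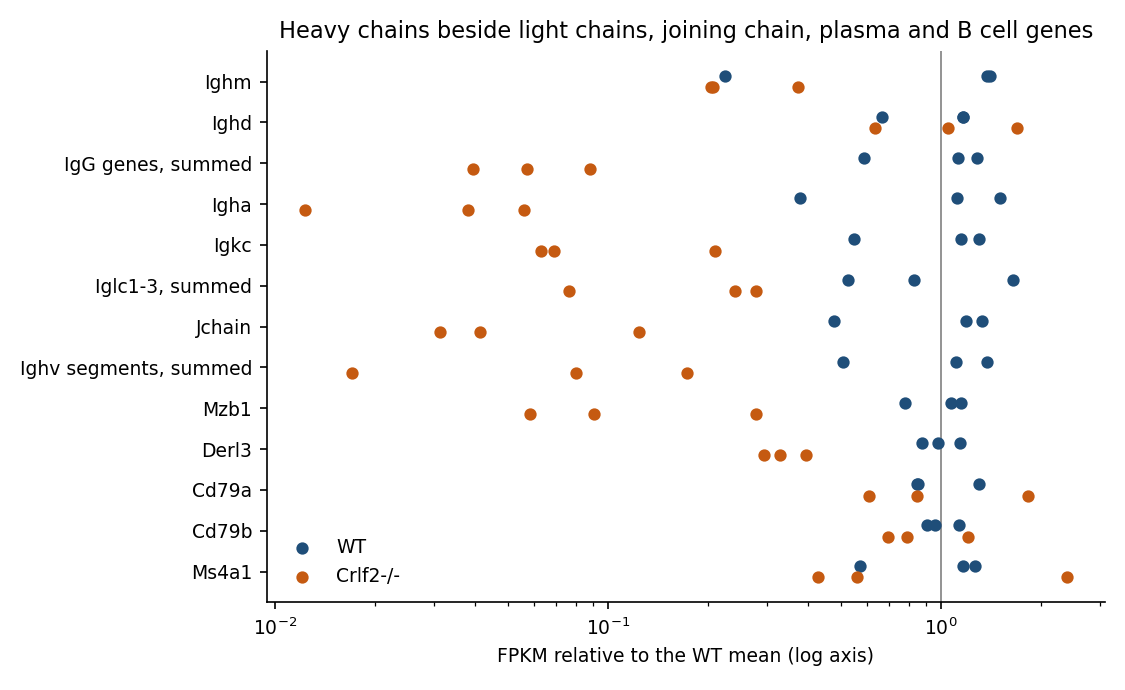
Level of heavy chain genes, light chain genes, *Jchain*, summed *Ighv* segments, 2 plasma cell genes and 3 B cell genes in each library, relative to the WT mean of each (log axis, vertical line at 1). The 2 plasma cell genes, *Mzb1* and *Derl3*, had the lowest log2 fold changes of the 14 tested in their list, of which 7 were above and 7 below 0. All *Crlf2-/-* dots lie below all WT dots for the summed IgG genes, *Igha*, both kinds of light chain, *Jchain*, the *Ighv* segments, *Mzb1* and *Derl3*, and the groups overlap for *Ighm*, *Ighd* and the 3 B cell genes.

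The machinery of class switching was read from 1 list. Of 17 genes, 16 were found in the table and 15 were tested with limma, with 0 called, 0 at an unadjusted p below 0.05 and a median log2 fold change of 0.03. The repair genes *Msh6*, *Xrcc5*, *Xrcc6* and *H2afx*, which are not particular to B cells, had log2 fold changes between -0.10 and 0.08.

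Of 21 genes for signals that direct switching or keep antibody-secreting cells alive, 14 were tested and 0 were called. *Il4*, which directs switching to IgG1 and IgE, had 56, 39 and 46 fragments in the WT hearts against 52, 45 and 36 in the *Crlf2-/-* hearts. *Ifng*, which directs switching to IgG2c, had 7, 9 and 4 against 3, 1 and 2 fragments and was not tested. *Tgfb1*, which directs switching to IgA and IgG2b, was at 21.6 ± 1.11 FPKM (SD, n = 3) over the WT mice and 22.4 ± 2.17 FPKM (SD, n = 3) over the *Crlf2-/-* mice. The survival factors *Tnfsf13* (APRIL) and *Tnfsf13b* (BAFF) had log2 fold changes of 0.12 and 0.00 (0.0027), with standard errors of 0.38 and 0.20.

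In this list 3 of the 14 tested genes had an unadjusted p below 0.05, 2 lower and 1 higher. Over all 15520 tested genes, 1021 did, 522 lower and 499 higher. *Ifngr1*, the receptor of interferon-γ, had a log2 fold change of -0.33 with a standard error of 0.10 (adjusted p = 0.457), and *Cd40*, through which T cells help B cells, one of 0.52 with a standard error of 0.14 (adjusted p = 0.355). The remaining one was *Crlf2* itself, at -0.52 (adjusted p = 0.521). *Il13* and *Il21* were listed at 0 in all libraries. For antibody transport, *Fcgrt*, the neonatal Fc receptor that recycles IgG, was at 68.3 ± 2.68 and 62.3 ± 6.18 FPKM (SD, n = 3 each), and *Pigr*, which carries polymeric IgA and IgM across epithelia, had 1 fragment in WT 1 and 0 elsewhere.

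Markers of other cells were set beside the heavy chain genes, and limma called none of them. Of 12 T cell genes, 12 were tested, 0 were called and 10 had an unadjusted p below 0.05 and were lower, beside 3.36% of all tested genes. The median log2 fold change of the list was -1.12. The summed level of these T cell genes was between 21.1 and 30.9 FPKM in WT and between 11.8 and 14.7 FPKM in *Crlf2-/-* hearts. *Cd8b1* had the lowest adjusted p of the list, 0.0778, whereas *Cd4* had a log2 fold change of 0.02. Of 5 red blood cell genes, 5 were tested, 0 were called and 5 were lower with an unadjusted p below 0.05, beside the same 3.36% of all tested genes. The summed level of these 5 genes was between 226 and 366 FPKM in WT and between 85.4 and 161 FPKM in *Crlf2-/-* hearts. With the replicate number as a block, *Hbb-bt*, a hemoglobin gene, was called lower. In the 10 cardiomyocyte genes, 0 were called and 10 fold changes were below 0, with a median of -0.72 and overlapping sums. Among them 4 were lower with an unadjusted p below 0.05, beside 3.36% of all tested genes. Of 5 lymph node stroma genes 2 were tested and 0 were called, *Ccl19* was listed at 0, and *Ccl21a* had 178, 52 and 10 fragments in the WT hearts against 5, 205 and 6 in the *Crlf2-/-* hearts. *Cxcl13*, the other tested gene of this list, had 45, 135 and 343 against 34, 35 and 58 fragments and was lowest in WT 1 among WT hearts. Among WT hearts *Ccl21a* was highest in WT 1, as *Igha* was, and among *Crlf2-/-* hearts it was highest in *Crlf2-/-* 2, as *Ighg1* was. Neither heavy chain gene matched *Ccl21a* in both groups, since *Igha* was highest in *Crlf2-/-* 3 and *Ighg1* was lowest in WT 1 among WT hearts. The part of T cells, blood, muscle or lymph node stroma in the levels of the heavy chain genes was not tested.

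Finally, genes outside the immunoglobulins were ranked by the correlation of log2(FPKM + 0.1) with the log2 of the summed heavy chain level over the 6 libraries. The closest were *Klhl42*, *Apln*, *Cop1*, *Foxk2*, *Vegfc*, *Clec10a*, *Luc7l* and *C1ra*, with Pearson correlations from 0.973 to 0.984. After each group was centered on its own mean, the correlations of these 8 were between 0.864 and 0.964. For comparison, *Jchain* reached 0.984 (0.932 centered), *Igkc* 0.981 (0.901) and *Mzb1* 0.887 (0.315), whereas *Cd79a* reached 0.281 (0.653). *Igha* had 0.746, and -0.684 after centering, so that within the groups it ran against the sum, which *Ighm* dominates. These are descriptions over 6 libraries that share 1 group difference, and the 8 genes were the highest of 15520 tested.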

How the data were processed

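RNA from infarcted and peri-infarcted hearts of 3 WT and 3 *Crlf2-/-* mice was sequenced by the study. Per its methods, the authors trimmed reads with fastp 0.19.4, aligned them with Hisat2 2.0.5, counted with featureCounts 1.5.0-p3 and deposited FPKM with a gene length. Strandedness was not given in the sources used here. The submitters' notes list the builds mm10 and hg38, and the positions in the table were set beside GENCODE M21 (GRCm38). Of its genes 54409 are in that annotation, and 53499 of them start and end at the same bases. The extraction text of the labels speaks of another tissue and kit, and the tissue label, heart, was followed. Whether the mice were handled in batches was not given in the sources used here.

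Fragments were FPKM times gene length divided by the step of each library. TMM factors put libraries on 1 scale, and limma 3.58.1 in R 4.3.3 (lmFit, eBayes with trend and robust) was fitted to log2(FPKM + 0.1). It covered the 15520 genes that reached 10 fragments in 3 or more libraries and 15 fragments over all. Because the deposited unit is FPKM, this fit to log2 values is the one reported, and voom on the recovered fragments is an alternative. The pseudocount of 0.1 makes fold changes of genes with low values too small. The test was also run on simulated data. The members and lists were chosen with earlier results of these data known. By plan, all members, the 8 genes most correlated with the summed heavy chain level and markers at 0 were to be named. Of each list, the called genes and up to 4 tested genes with the highest mean FPKM were to be named as well. Several of these genes with high FPKM are not named above, and further genes of the lists were named after their values were seen. H2ax was matched by its older symbol, and 1 listed name, Shld3, was not matched. The other steps used Biopython 1.88, matplotlib 3.10.9, pandas 2.3.3, scipy 1.17.1 and numpy 2.4.6 in Python 3.11.15. Alternatives were other scalings, pseudocounts and filters, the replicate number as a block, voom, shares per length and leaving out each library. Leaving out single libraries for overlap and ratios of means was added after seeing the data. Results that need an item withheld for evaluation are not reported here.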

Additional observations from a re-analysis of the deposited data

How the results depend on the processing

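Under FPKM as deposited, median-of-ratios scaling and both other pseudocounts, the counts of called genes were the same as reported, 2 in all, 1 higher and 1 lower. Without a filter on low genes, 6 genes were called, 2 higher and 4 lower, and where a gene needed 10 fragments in each of the 6 libraries, 1 was called and 0 lower, because *Ighg2b* was then not tested; 458 genes were lower there at an unadjusted p below 0.05. voom on the fragments called 2 genes lower. The replicate numbers did not pair the mice, with correlations of same-numbered deviations of -0.016, 0.115 and 0.12; with the replicate block 4 genes were called, 3 of them lower, and WT 1, WT 3, *Crlf2-/-* 1 and *Crlf2-/-* 2 correlated best with another number. When each library was left out, 1 to 14 genes were called, 1 to 4 higher and 0 to 10 lower, 0 or 1 of them a heavy chain constant gene.

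The log2 fold change of *Ighm* ranged from -2.46 to -1.14 over 14 alternatives, that of *Igha* from -5.12 to -3.24, that of *Ighg2b* from -4.10 to -1.60 over 13 and that of *Ighg2c* from -5.33 to -2.46 over 10. The small values came from a pseudocount of 1 for all but *Ighm*, whose smallest came without WT 2. Left-out libraries moved the summed level to between 104 and 162 FPKM in WT and between 23.2 and 31.8 FPKM in *Crlf2-/-* hearts, and the switched share to between 14.3% and 41.7% and between 4.52% and 7.75%. With each library left out, 4 or 5 of the 8 genes had all *Crlf2-/-* libraries below all WT libraries, beside 8.71% to 13.5% of tested genes. Depth limits *Ighg1*, *Ighg3* and *Ighe* in all libraries and *Ighg2b* and *Ighg2c* in *Crlf2-/-* hearts, where 1 to 16 fragments carry each value.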
